A study of Bos indicus x Bos taurus with 45 samples.

Results

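The let-7 passenger strands are the less abundant arms of the let-7 microRNA hairpins, and here they are the listed bovine miRNAs whose name begins with bta-let-7 and ends in -3p. 6 of the 603 names across the 4 tissue tables met this rule, namely bta-let-7a-3p, bta-let-7d-3p, bta-let-7e-3p, bta-let-7f-1-3p, bta-let-7g-3p and bta-let-7i-3p. Kidney and tongue listed all 6, of 436 and 460 miRNAs. Skeletal muscle listed 5 of 439, without bta-let-7g-3p, and liver listed 4 of 563, without bta-let-7g-3p and bta-let-7i-3p. The choice used names only, but which strands a table lists depended on their abundance.

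Small RNA sequencing was done on 45 tissue libraries of Bos indicus x Bos taurus fetuses at about day 105 of gestation. Fetuses with large offspring syndrome (LOS), an overgrowth condition of ruminants that follows assisted reproduction, were compared with control fetuses conceived by artificial insemination, and in liver also with fetuses that came from assisted reproduction but had a normal phenotype (ART). Kidney and skeletal muscle had 4 LOS and 4 control libraries each, liver had 4 LOS, 4 ART and 5 control libraries, and tongue had 7 LOS and 9 control libraries from both sexes. How the ART and LOS embryos were produced was referred by the labels to an earlier study and is not described here. Each library came from whole tissue, so fewer cells of a type and less RNA per cell cannot be told apart.

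A let-7 hairpin is cut by Dicer into a pair of arms. The 5′ arm is the usual guide strand, which an Argonaute protein holds and uses to repress mRNAs of growth-promoting proteins such as HMGA2, while most of the 3′ passenger strand is degraded. LIN28 blocks the cutting of let-7 precursors, a step that comes before the arms part. In mammals let-7f-1 and let-7d lie in a cluster with a let-7a precursor, and let-7e lies beside miR-99b and miR-125a.

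Listed reads per library numbered 9357833 to 13822348 for tongue, 6132982 to 9170756 for kidney, 4744968 to 6456252 for skeletal muscle and 3379816 to 4976770 for liver. Levels are given as CPM, the reads of a miRNA per 1000000 listed reads of its library. Some marker miRNAs fitted the labelled tissues. miR-122 of hepatocytes averaged 18071 ± 1579 CPM in liver (SD, n = 13) and 8.38 ± 6.57 CPM in kidney (n = 8). miR-133a of striated muscle averaged 14649 ± 1074 CPM in skeletal muscle (n = 8) and 15679 ± 1628 CPM in tongue (n = 16). Other markers were less clear. miR-208b and miR-499 of muscle averaged 934 and 418 CPM in skeletal muscle but 27.5 and 16.8 CPM in tongue. miR-192 of hepatocytes averaged 68920 CPM in liver and 22246 CPM in kidney. No listed count was 0, and the second-highest CPM of every listed miRNA was at least 5.50 for liver, 5.36 for tongue, 5.30 for kidney and 5.22 for skeletal muscle. A scarce miRNA was therefore listed only where some libraries lay above about this level, which bears on 2 results below.

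The passenger strands differed widely in their reads beside those of the guide. bta-let-7d-3p had the highest arm ratio of the 6, with passenger reads per 1000 reads of let-7d in control fetuses of 191.9 ± 14.4 for kidney (SD, n = 4), 158 ± 14.5 for liver (n = 5), 158 ± 16.4 for skeletal muscle (n = 4) and 95.5 ± 15.2 for tongue (n = 9). bta-let-7e-3p came next, with 14.5 ± 1.12, 14.4 ± 3.31, 14.04 ± 1.58 and 6.91 ± 1.61 per 1000 reads of let-7e in the same groups. bta-let-7a-3p had 3.72 ± 0.538, 6.56 ± 0.846, 4.47 ± 0.150 and 3.29 ± 0.554 per 1000 reads of let-7a-5p.

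The remaining members had the lowest ratios. bta-let-7i-3p had 1.99 ± 0.210 per 1000 reads of let-7i in kidney, 1.44 ± 0.228 in skeletal muscle and 2.61 ± 0.145 in tongue, in controls. bta-let-7g-3p had 1.960 ± 0.229 per 1000 reads of let-7g in kidney and 2.43 ± 0.237 in tongue. bta-let-7f-1-3p had 1.04 ± 0.0937, 0.490 ± 0.143, 1.16 ± 0.289 and 1.27 ± 0.265 per 1000 reads of let-7f, in the same order of tissues. Over all pairs of arms listed in a table, the median number of reads of the lower arm per 1000 of the higher was 71.2 for kidney (107 pairs), 81.4 for liver (143), 83.8 for skeletal muscle (109) and 66.6 for tongue (125). bta-let-7d-3p stood above that median in each table, and bta-let-7f-1-3p ranked 7, 4, 7 and 6 from the lowest in these tables.

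The denominators are not all of 1 precursor. The tables give the precursor of let-7a-3p as mixed, and reads of the let-7f guide can come from more precursors than let-7f-1, so the ratios of bta-let-7a-3p and bta-let-7f-1-3p pool or mismatch hairpins. Strands also differ in how well adapters join them, which was not measured, so ratios are best compared between libraries for 1 strand.

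**Figure D1:**
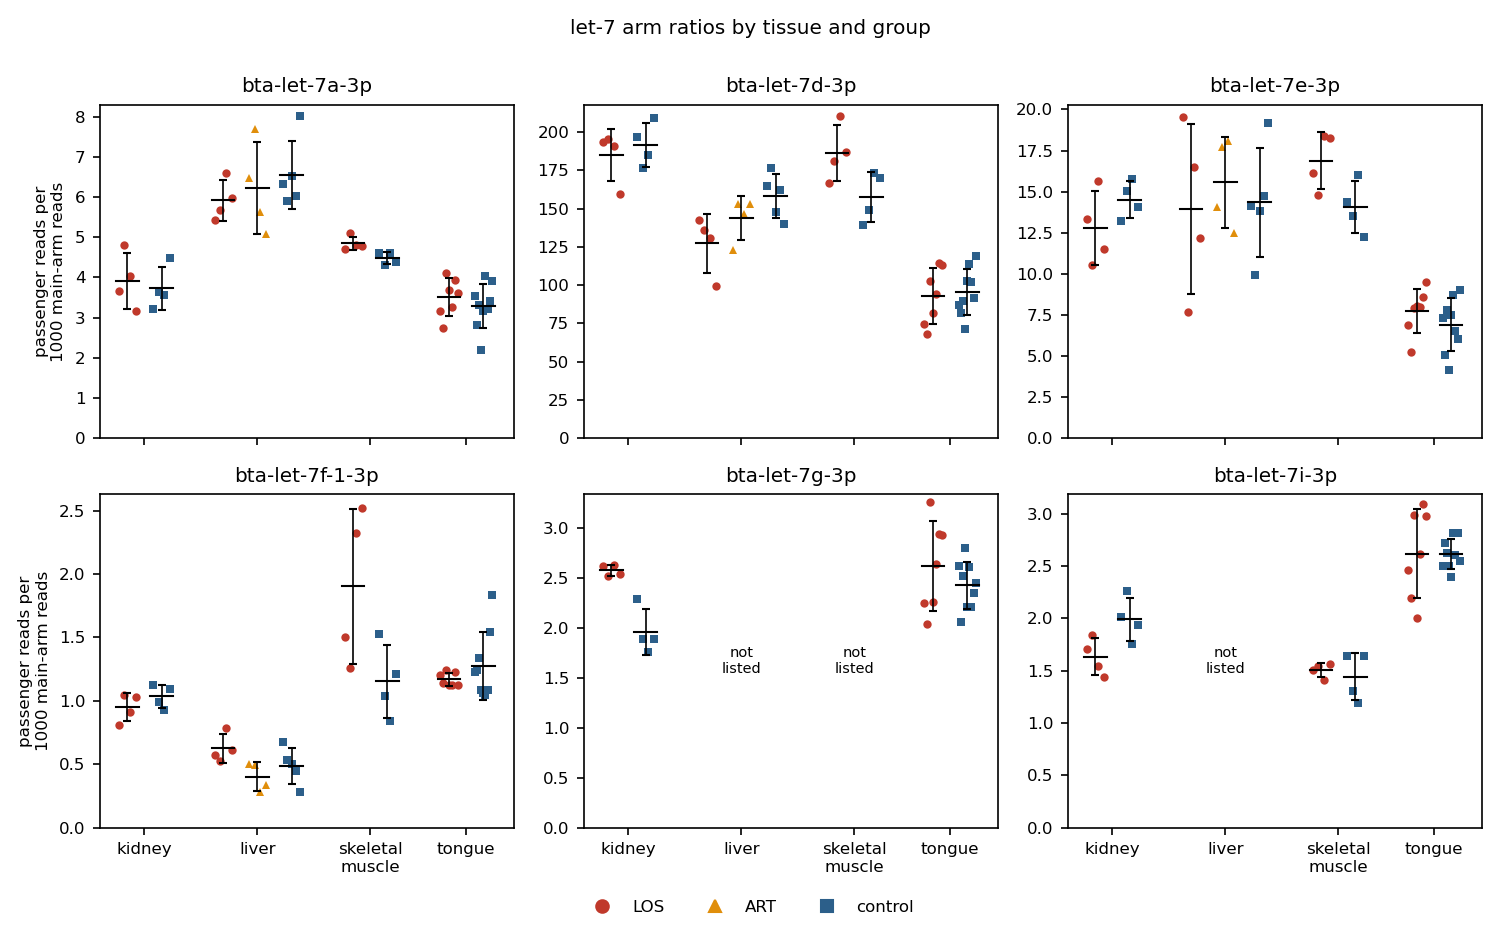
Passenger reads per 1000 reads of the main arm for the 6 strands, by tissue and group. Each point is a library, with the mean as a line and the SD as a bar. In the control means, bta-let-7a-3p is highest in liver and bta-let-7f-1-3p lowest there, while tongue is lowest for bta-let-7a-3p, bta-let-7d-3p and bta-let-7e-3p.

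Between control tissues, the arm ratios shifted in different directions for different let-7 members. Ratios within a library do not depend on its scaling, so they were compared for control fetuses 1 to 4 of each tissue with limma over the 89 arm pairs common to the 4 tables (a call is an adjusted p under 0.05 over those pairs; n = 4 per tissue). The fit had no term for the fetus, although libraries of the same number were taken as 1 fetus. Each tissue has its own table, and the processing notes name cutadapt for tongue alone, so tissue and processing cannot be told apart. Arm ratios of most pairs differed between tissues, and the members' counts are to be read against that background.

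bta-let-7a-3p had its highest ratio in liver. Its ratio was 6.33, 5.91, 6.53 and 6.03 per 1000 in liver of controls 1 to 4, and 3.21, 3.65, 3.56 and 4.48 in kidneys of controls 1 to 4. Every liver value lay above every kidney value. In limma the log2 ratio was 0.75 ± 0.13 (SE) higher in liver than in kidney (adjusted p = 6.56e-05) and 0.47 ± 0.13 higher than in skeletal muscle (adjusted p = 0.00483), with no overlap of the libraries in either pair.

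bta-let-7f-1-3p, in contrast, had its lowest ratio in liver. Its values were 0.679, 0.531, 0.506 and 0.450 per 1000 in liver, 1.13, 0.990, 0.927 and 1.10 in kidney and 1.52, 1.04, 0.843 and 1.21 in skeletal muscle of controls 1 to 4. The liver libraries lay below all of the kidney and muscle ones. In limma the log2 ratio was lower in liver by -0.91 ± 0.16 against kidney (adjusted p = 7.60e-05) and by -1.04 ± 0.16 against skeletal muscle (adjusted p = 2.33e-05). In liver these ratios rest on 12 to 20 reads of the strand per library, which limits their precision.

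bta-let-7d-3p and bta-let-7e-3p had their lowest ratios in tongue. In controls 1 to 4 the ratio of bta-let-7d-3p was 87.2, 81.9, 89.9 and 71.5 per 1000 in tongue and 139, 149, 173 and 169.8 per 1000 in skeletal muscle. bta-let-7e-3p had 7.32, 5.09, 7.78 and 4.14 per 1000 in tongue and 14.4, 13.5, 16.04 and 12.3 in skeletal muscle. For both strands the tongue libraries lay below every kidney, liver and muscle library of these fetuses. The log2 differences in limma ran from -1.22 to -0.93 for bta-let-7d-3p and from -1.30 to -1.15 for bta-let-7e-3p against the other 3 tissues, with adjusted p between 2.31e-09 and 1.11e-05.

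Counted by pair, limma called 3 of 4 strands between liver and kidney (61.8% of all arm pairs were called), 2 of 4 between liver and skeletal muscle (60.7%), 1 of 4 between kidney and skeletal muscle (48.3%), 3 of 4 between tongue and skeletal muscle (71.9%), 3 of 4 between tongue and kidney (68.5%) and 4 of 4 between tongue and liver (73%). These shares are not far from the background, so the calls as such do not mark out the let-7 strands. The kidney to muscle call was bta-let-7d-3p, with a log2 difference of 0.29 ± 0.10 (limma adjusted p = 0.0201), and its liver to kidney call was marginal (-0.23 ± 0.10, limma adjusted p = 0.0438). Both of these were lost when every control library was used (limma adjusted p = 0.0781 and 0.0522). That fit adds liver and tongue libraries, male tongues among them, but none of kidney or skeletal muscle. The kidney to muscle difference itself stayed at 0.29, and its adjusted p moved with the shared estimate of spread. The tongue to kidney call of bta-let-7a-3p (-0.34 ± 0.13, limma adjusted p = 0.0281) was lost in that fit too (0.168). Single libraries also decided them: the kidney to muscle call was lost without kidney control 1 or 4 or muscle control 1 or 2, the liver to kidney call without control 1, 3 or 4 of either tissue, and the tongue to kidney call without kidney control 4 or tongue control 2 or 4 (limma adjusted p of 0.0508 to 0.126 over these fits).

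In read levels, bta-let-7d-3p was the most abundant member in every table, between 36.5 CPM in a liver library and 163 CPM in a kidney library. bta-let-7a-3p lay between 22.1 and 61.7 CPM over the 45 libraries, bta-let-7e-3p between 3.48 and 23.8 CPM and bta-let-7f-1-3p between 2.18 and 25.3 CPM. bta-let-7i-3p lay between 11.0 and 50.4 CPM where it was listed, and bta-let-7g-3p between 3.98 and 13.1 CPM. A read spans the whole mature strand, so no scaling for length was made.

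Levels in liver were low for bta-let-7d-3p and bta-let-7f-1-3p. bta-let-7d-3p averaged 48.9 ± 3.72 CPM in liver and 137 ± 18.4 CPM in kidney of controls 1 to 4, and bta-let-7f-1-3p averaged 4.23 ± 0.617 and 12.5 ± 1.88 CPM (SD, n = 4 each). With TMM scaling over the 374 shared miRNAs, edgeR's quasi-likelihood test gave log2 differences of liver against kidney of -2.28 ± 0.10 and -2.35 ± 0.17 (adjusted p = 4.78e-13 and 2.82e-10). Without such scaling they were -1.49 and -1.56, and TMM moved the median of all miRNAs by -0.79 against no scaling. The direction held under each scaling tried for both strands and for liver against skeletal muscle (-1.90 to -1.05 for bta-let-7d-3p and -2.36 to -1.51 for bta-let-7f-1-3p).

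bta-let-7f-1-3p was highest in tongue. It averaged 21.9 ± 1.76 CPM in tongue of controls 1 to 4, against 12.2 ± 2.38 CPM in skeletal muscle, the other striated muscle of the series. The libraries of the 2 tissues did not overlap, and the log2 difference was 0.49 ± 0.13 (edgeR adjusted p = 0.00347), or 0.85 without scaling. Against kidney it was 0.37 ± 0.13 (edgeR adjusted p = 0.0132), with no overlap, but 0.23 and not called with only these tissues in the fit (adjusted p = 0.0701). bta-let-7i-3p was also higher in tongue, by 0.51 ± 0.13 on the log2 scale against skeletal muscle (edgeR adjusted p = 0.00643 in a fit of these tables alone, in which 58.9% of miRNAs were called) and by 0.68 ± 0.12 against kidney (adjusted p = 0.00028, 78.1% called). Between kidney and skeletal muscle bta-let-7i-3p differed by -0.43 ± 0.13 (edgeR adjusted p = 0.0109, 73.4% called), and bta-let-7g-3p, measured in kidney and tongue alone, was 0.42 ± 0.18 higher in tongue with an edgeR adjusted p of 0.0527.

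bta-let-7e-3p was highest in kidney, where controls 1 to 4 averaged 20.1 ± 2.49 CPM, against 12.4 ± 1.05 CPM in skeletal muscle (log2 difference 0.78 ± 0.18, edgeR adjusted p = 0.00102). The kidney libraries lay above all muscle, liver and tongue libraries of these fetuses. For bta-let-7a-3p the order of the tissues depended on the scaling: tongue against skeletal muscle was -0.28 with TMM and 0.077 without scaling, and tongue against kidney was -0.07 with TMM and 0.37 without. The sign also turned for bta-let-7d-3p between tongue and skeletal muscle (-0.24 with TMM, 0.11 without) and for bta-let-7e-3p between tongue and liver (0.33 with TMM, -0.026 without). That last difference did not pass with TMM (edgeR adjusted p = 0.130) but did so at 0.44 with RLE scaling (0.0468), 0.55 without the 3 most abundant miRNAs (0.0148), 0.68 with only these tissues in the fit (0.0207), 0.64 with every control library (0.000565) and 0.48 without tongue control 4 (0.0149). The fit with every control library adds male tongues to the female ones.

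Of the 4 strands in all tables, edgeR with TMM called 4 between liver and kidney (86.1% of all shared miRNAs were called), 4 between liver and skeletal muscle (85.6%), 2 between kidney and skeletal muscle (76.7%), 4 between tongue and skeletal muscle (64.7%), 3 between tongue and kidney (79.1%) and 3 between tongue and liver (85.3%). Most miRNAs differed between these tissues, and counts out of 4 cannot be set apart from that background. Liver calls also depended on the scaling. Without it, bta-let-7a-3p was no longer called between liver and kidney (-0.17, edgeR adjusted p = 0.211). Nor was bta-let-7e-3p between liver and skeletal muscle (-0.33, edgeR adjusted p = 0.180). The tongue to muscle calls of bta-let-7a-3p and bta-let-7d-3p were marginal (edgeR adjusted p = 0.0377 and 0.0310). The first was lost without muscle control 1, 3 or 4 or tongue control 2 or 4, and the second without muscle control 3 or 4 or tongue control 4 (edgeR adjusted p of 0.0575 to 0.117).

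**Figure D2:**
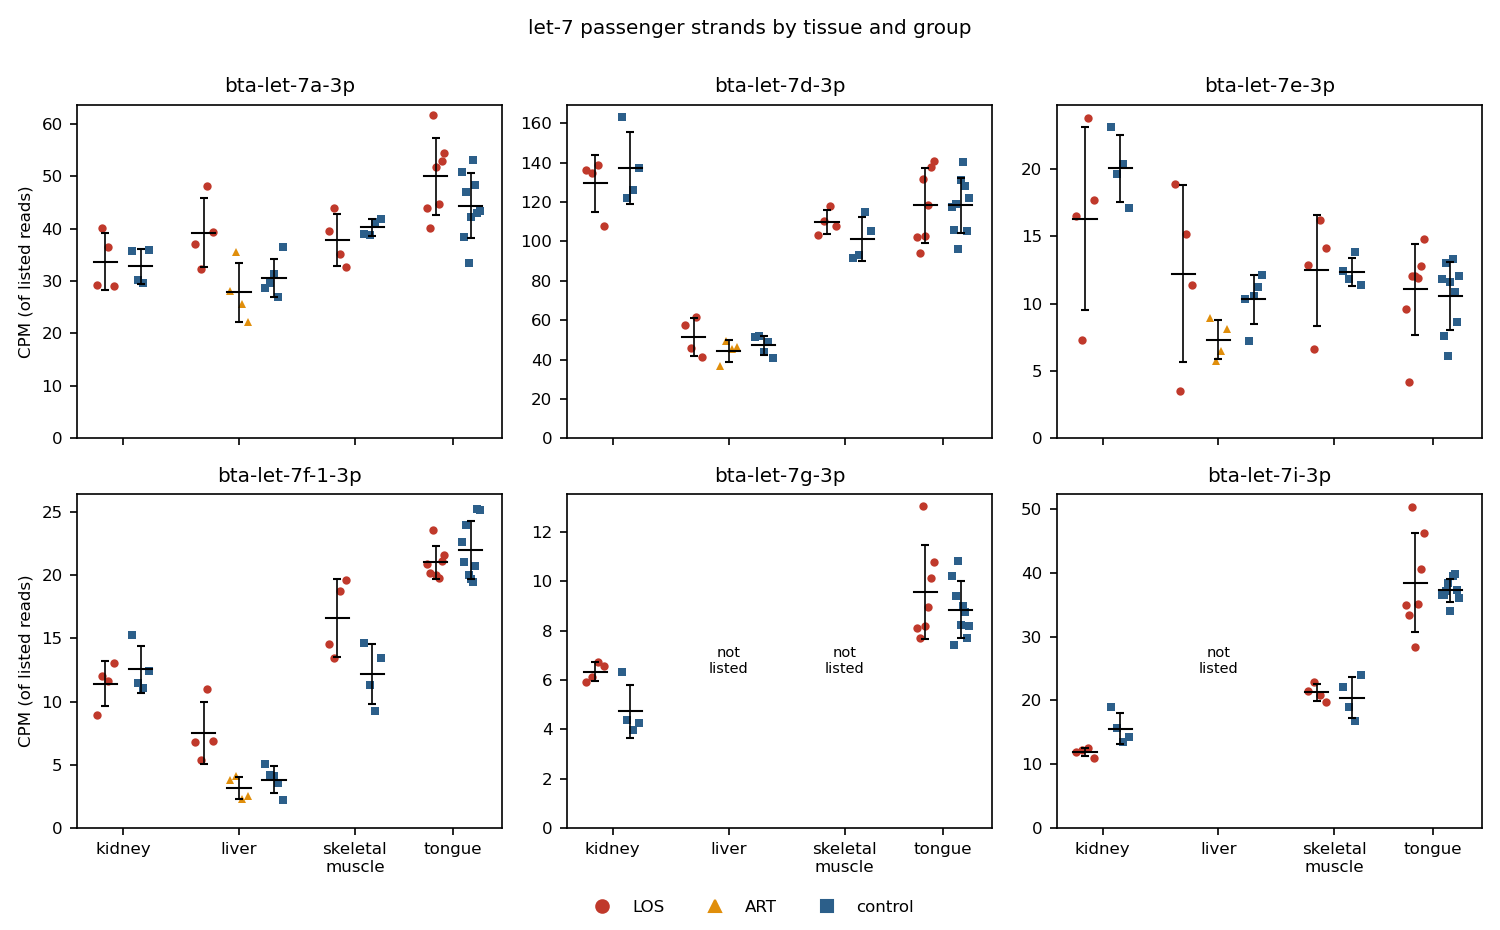
CPM of the 6 passenger strands in every library, by tissue, with LOS, ART (liver alone) and control libraries side by side, the mean as a line and the SD as a bar. In liver the 4 LOS libraries of bta-let-7f-1-3p lie between 5.36 and 11.0 CPM, above all ART and control libraries, and 1 LOS library of bta-let-7e-3p is the lowest of its table in each tissue.

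In liver, the overgrown fetuses were compared with ART fetuses of normal size and with controls. All 4 listed passenger strands had positive log2 differences in LOS livers against both groups, with a median of 0.60 against ART and 0.30 against control (all miRNAs had a median of 0.013 against control and of -0.00012 against ART). This is a description only, since bta-let-7f-1-3p was listed through its LOS libraries. 1 strand, bta-let-7f-1-3p, passed the edgeR test against ART, where 2.66% of the 563 miRNAs were called, and none passed it against control, where 1.24% were called. The guides moved in the same direction: of the 9 guides of the family, miR-98 included, 9 were above 0 in both comparisons, 5 were called against ART and 6 against control. These comparisons share their LOS libraries and are given side by side.

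bta-let-7f-1-3p, from a hairpin of the let-7a, let-7d and let-7f cluster, had 34, 20, 48 and 32 reads in LOS livers, 18, 17, 10 and 10 reads in ART livers and 20, 15, 16, 12 and 9 reads in control livers. As levels these were 6.83, 5.36, 11.0 and 6.85 CPM in LOS livers, 3.75, 4.08, 2.31 and 2.54 CPM in ART livers and 5.05, 4.18, 4.14, 3.55 and 2.18 CPM in control livers. Every LOS library lay above every ART and every control library. The share of all miRNAs whose levels separated these groups was not counted. The log2 difference was 1.21 ± 0.28 (SE) between LOS and ART (edgeR adjusted p = 0.0363, 4 of 4 LOS libraries higher) and 0.97 ± 0.27 between LOS and control (edgeR adjusted p = 0.116).

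Both values need their limits. bta-let-7f-1-3p reached the lowest level at which liver miRNAs were listed (5.50 CPM in the second-highest library) in 3 of 4 LOS libraries, 0 of 4 ART libraries and 0 of 5 control libraries, so it is in the table through the group in which it was high. The call against ART was lost in a fit of LOS and ART alone (edgeR adjusted p = 0.0734) and without any 1 of LOS 1, 3 or 4, of the 4 ART libraries or of controls 2, 3 and 4 (up to 0.128), while the difference stayed between 0.96 and 1.34.

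The let-7f guide was high in the same libraries, with 11935, 10156, 14016 and 11122 CPM in LOS livers, against 7406 to 8251 CPM in ART livers and 7439 to 8179 CPM in control livers. Relative to it, bta-let-7f-1-3p stood at 0.572, 0.527, 0.785 and 0.616 per 1000 reads in LOS livers, at 0.507, 0.494, 0.280 and 0.334 in ART livers and at 0.679, 0.531, 0.506, 0.450 and 0.283 in control livers. The LOS ratios lay above all ART ratios but overlapped those of the controls. Between LOS and ART, 5 of 143 arm pairs had an exact permutation p under 0.05. The log2 difference of the ratio was 0.63 ± 0.27 against ART (limma adjusted p = 0.326) and 0.36 ± 0.26 against control (limma adjusted p = 0.788), neither of which passed the test. limma called 0% of the 143 arm pairs in each of these comparisons, with 18 pairs at an unadjusted p under 0.05 against ART and 13 against control.

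bta-let-7a-3p had 37.2, 32.4, 48.2 and 39.4 CPM in LOS livers, 28.1, 35.5, 25.6 and 22.1 CPM in ART livers and 28.8, 29.6, 31.3, 26.9 and 36.5 CPM in control livers. 3 of 4 LOS libraries lay above every ART library, and 3 of 4 above every control library. The log2 difference was 0.47 ± 0.16 against ART (edgeR adjusted p = 0.150) and 0.35 ± 0.15 against control (edgeR adjusted p = 0.348). Its ratio to let-7a-5p differed by -0.06 ± 0.13 against ART and by -0.15 ± 0.12 against control (limma adjusted p = 0.830 and 0.797).

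bta-let-7d-3p had 57.5, 46.1, 61.7 and 41.1 CPM in LOS livers, 36.5, 49.4, 45.2 and 46.2 CPM in ART livers and 51.2, 51.9, 43.7, 48.8 and 40.6 CPM in control livers, and the groups overlapped. The level did not pass in edgeR (0.19 ± 0.14 against ART and 0.12 ± 0.14 against control, adjusted p = 0.552 and 0.739). Its ratio to let-7d was 143, 136, 131 and 99.6 per 1000 in LOS livers, 123, 153, 147 and 153 in ART livers and 165, 177, 148, 162 and 140.1 in control livers. 3 of the 4 LOS ratios lay below every control ratio.

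The log2 difference of that ratio was -0.32 ± 0.11 in LOS against control livers, which did not pass in limma (adjusted p = 0.236) and had an exact permutation p of 0.0238, two-sided and unadjusted, in a design whose smallest p is 0.0159 (12 of 143 arm pairs had an exact p under 0.05). Against ART livers it was -0.18 ± 0.12 (limma adjusted p = 0.502).

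ART livers were also set against control livers, which addresses assisted reproduction without overgrowth. The log2 differences of the 4 strands lay between -0.47 ± 0.36 for bta-let-7e-3p and -0.08 ± 0.14 for bta-let-7d-3p, and the libraries overlapped. edgeR called 0% of the 563 miRNAs, with 47 showing an unadjusted p under 0.05. DESeq2 called 6 and limma-voom 0. limma called 0% of the arm pairs, with 15 at an unadjusted p under 0.05. Same-numbered ART and control livers deviated together, and with the number as a block 1 miRNA and 4 arm pairs were called, none of them a passenger strand.

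Cell type markers were set beside these values. The 6 markers of smooth muscle and fibroblasts were all above 0 in LOS against control livers, at summed levels of 75920 to 89500 CPM in LOS, 67208 to 76298 CPM in ART and 58971 to 77336 CPM in control livers. The 5 hepatocyte markers were all below 0, at 152514 to 170779 CPM in LOS, 172897 to 189427 CPM in ART and 164523 to 183915 CPM in control livers. Of the white blood cell markers 6 of 7 were below 0 against control (5051 to 5475 CPM in LOS, 5249 to 5652 CPM in ART and 5393 to 5956 CPM in control livers), and of the epithelial markers 5 of 5 were above 0 (751 to 877 CPM in LOS, 648 to 906 CPM in ART and 659 to 789 CPM in control livers). No marker was called against control and 1 hepatocyte marker was called against ART. Their part in the passenger strand differences was not tested.

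In kidney the question was the same, with LOS set against control fetuses. 2 of 6 strands had a positive log2 difference and 4 a negative one. edgeR called 0% of the 436 miRNAs, with 33 showing an unadjusted p under 0.05 (DESeq2 called 3 and limma-voom 0), and limma called 0% of the 107 arm pairs, with 7 at an unadjusted p under 0.05.

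bta-let-7i-3p separated the groups there, with 11.95, 12.3, 12.5 and 11.0 CPM in LOS kidneys and 18.9, 15.7, 13.5 and 14.2 CPM in control kidneys. All LOS values lay below all control values. The share of all miRNAs whose levels separated the groups so was not counted. The log2 difference was -0.39 ± 0.12 (edgeR adjusted p = 0.344), and over the alternatives the adjusted p ran from 0.213 to 0.679. The ratio to let-7i, 1.71, 1.85, 1.55 and 1.44 per 1000 in LOS kidneys and 2.01, 2.26, 1.75 and 1.94 in control kidneys, overlapped between the groups (-0.28 ± 0.13, limma adjusted p = 0.553).

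bta-let-7g-3p went the other way in kidney. It had 5.90, 6.14, 6.74 and 6.54 CPM in LOS kidneys and 6.32, 4.36, 3.98 and 4.24 CPM in control kidneys, where control 1 overlapped the LOS range. Its ratio to let-7g was 2.62, 2.52, 2.63 and 2.54 per 1000 in LOS kidneys and 2.29, 1.89, 1.76 and 1.89 in control kidneys, with no overlap. The log2 differences were 0.42 ± 0.16 in level (edgeR adjusted p = 0.453) and 0.39 ± 0.15 in ratio (limma adjusted p = 0.378). The ratio had an exact permutation p of 0.0286, the smallest this design gives, and 6 of 107 arm pairs were under 0.05. All 4 LOS kidneys but 1 of 4 control kidneys reached the 5.30 CPM at which the second-highest library of the scarcest listed miRNA stood, so this strand too is listed mainly through LOS libraries.

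Of the 9 guides in kidney, 1 was above 0 and none was called. The 6 smooth muscle and fibroblast markers had 5 below 0 in LOS kidneys (47718 to 52962 CPM summed in LOS and 49620 to 68511 CPM in control kidneys, no call). Below 0 were also 4 of 4 hepatocyte, 5 of 6 white blood cell and 2 of 3 red cell precursor markers, and the 1 listed skeletal muscle marker. Above 0 were 4 of 6 epithelial and 2 of 3 endothelial markers, and no list had a call. The part of these markers in the bta-let-7i-3p values was not tested. bta-let-7a-3p, bta-let-7d-3p, bta-let-7e-3p and bta-let-7f-1-3p overlapped between LOS and control kidneys, with differences of -0.31 to 0.04.

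**Figure D3:**
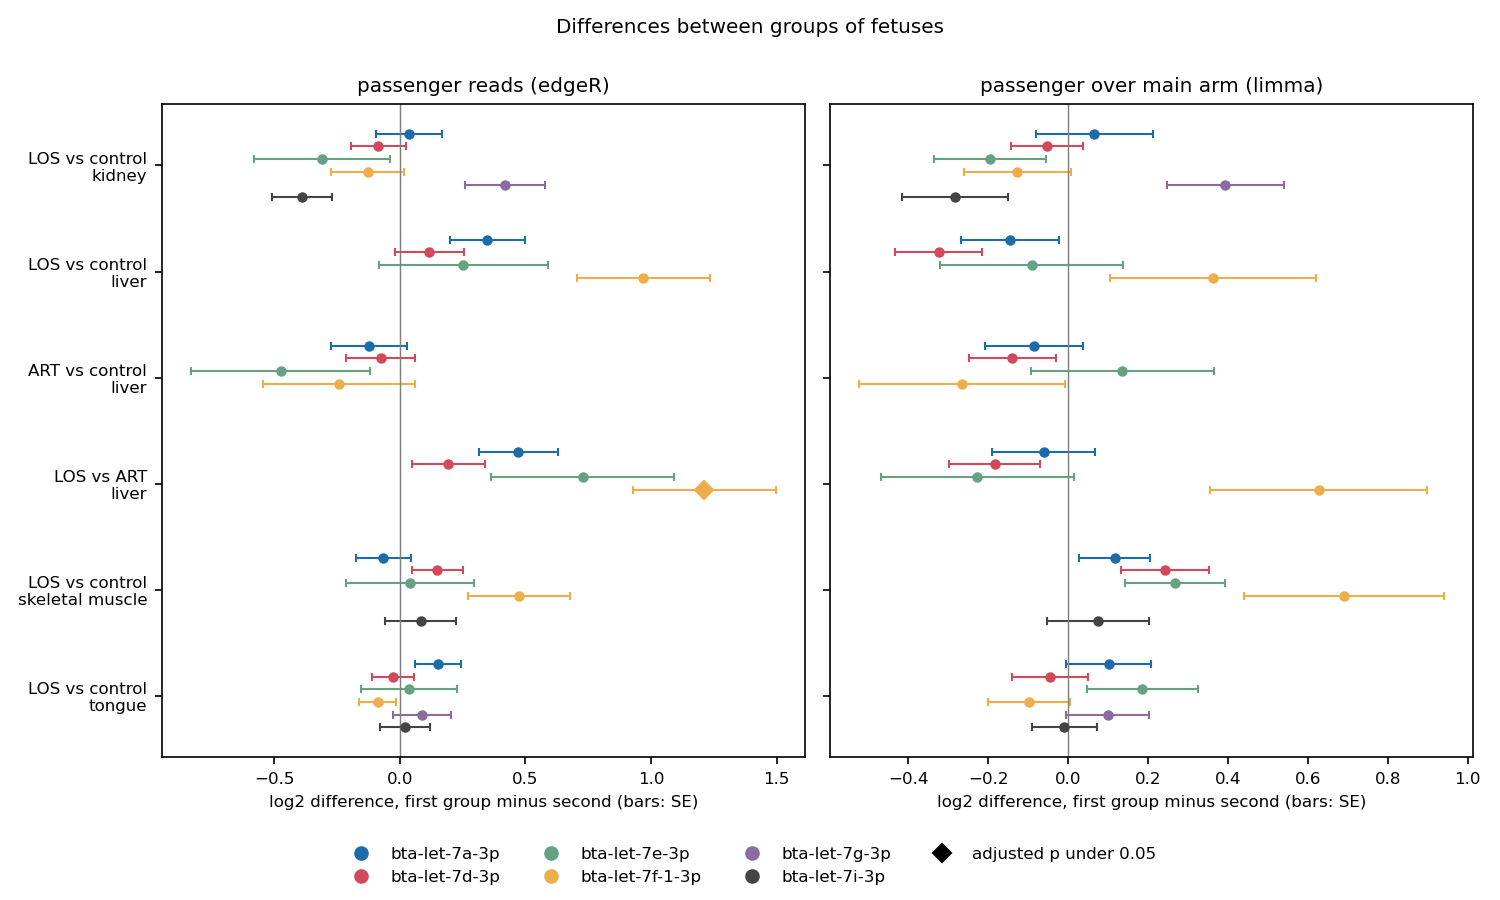
Log2 differences of the passenger strands with their SE for 6 comparisons of groups, in reads (left, edgeR) and as the ratio to the main arm (right, limma). Positive values are higher in the first group named. The diamond, bta-let-7f-1-3p in LOS against ART livers at 1.21, is the single call.

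In skeletal muscle, the 5 listed strands all had positive log2 differences of the arm ratio in LOS against control fetuses, between 0.07 ± 0.13 for bta-let-7i-3p and 0.69 ± 0.25 for bta-let-7f-1-3p. None passed in limma, while 4.59% of the 109 arm pairs were called, 5 higher and 0 lower, and the median over all pairs was 0.06. The same tables gave no call in levels: edgeR called 0% of the 439 miRNAs, with 58 showing an unadjusted p under 0.05. DESeq2 called 17 and limma-voom 0.

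bta-let-7f-1-3p had 14.6, 13.4, 18.8 and 19.7 CPM in LOS muscle and 14.6, 11.3, 9.27 and 13.5 CPM in control muscle, where LOS 1 and 2 lay within the control range (0.47 ± 0.20, edgeR adjusted p = 0.367). Its ratio was 1.505, 1.26, 2.33 and 2.52 per 1000 in LOS muscle and 1.52, 1.04, 0.843 and 1.21 in control muscle. LOS 3 and 4 lay above every control and LOS 1 and 2 did not. The ratio did not pass in limma (adjusted p = 0.147), and without single libraries its difference ran from 0.54 (without LOS 4) to 0.87 (without LOS 2). The adjusted p ran from 0.0387 without LOS 2, the 1 such fit that passed in limma, to 0.351 without LOS 3.

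The ratio of bta-let-7a-3p in muscle differed little but did not overlap. The values were 4.71, 5.09, 4.82 and 4.78 per 1000 in LOS muscle and 4.60, 4.31, 4.60 and 4.38 in control muscle, all LOS above all control. The log2 difference was 0.12 ± 0.09 (limma adjusted p = 0.467; exact permutation p = 0.0286, the smallest this design gives, with 16 of 109 arm pairs under 0.05). bta-let-7d-3p (167, 181, 211 and 187 per 1000 in LOS muscle, 139, 149, 173 and 169.8 in control muscle) and bta-let-7e-3p (16.2, 14.8, 18.4 and 18.3 in LOS muscle, 14.4, 13.5, 16.04 and 12.3 in control muscle) each had 3 of 4 LOS ratios above every control ratio, with adjusted p of 0.249 and 0.261 in limma.

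The summed reads of the 4 strands common to all tables, per 1000 reads of their guides, were also set side by side for each tissue. They lay between 8.58 and 11.2 in LOS muscle and between 7.27 and 8.35 in control muscle, and between 5.18 and 5.99 in LOS livers, 5.92 and 7.01 in ART livers and 6.39 and 7.32 in control livers. LOS muscle thus lay above all control muscle, and LOS liver below all control liver. The groups overlapped in kidney, at 6.96 to 9.16 in LOS and 8.39 to 9.56 in control kidneys. They also overlapped in tongue, at 4.59 to 6.75 in LOS and 4.28 to 7.46 in control tongues. bta-let-7d-3p is the most abundant strand of the sum, which is given as a description. In LOS livers it averaged 51.6 CPM, while its guide averaged 406 CPM and let-7a-5p 6617 CPM. The sum thus sets it largely against guides of other hairpins. Against its own guide, the LOS to control liver difference was 0.36 for bta-let-7f-1-3p and -0.32 to -0.09 for the other strands. How often sums of other strands separate the groups was not counted. In muscle the 9 guides had a median log2 difference of -0.18, with 2 above 0, and in liver of 0.47 against control.

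In tongue, with the largest groups, no strand passed the test between LOS and control fetuses. edgeR with a term for sex called 0% of the 460 miRNAs, with 24 showing an unadjusted p under 0.05 and 0 called by DESeq2 or limma-voom. On the ratios limma called 0% of the 125 arm pairs, with 5 at an unadjusted p under 0.05. The largest difference in level was that of bta-let-7a-3p, with a lowest, median and highest CPM of 40.2, 51.9 and 61.7 in LOS tongues and of 33.4, 43.5 and 53.1 in control tongues. It was 0.15 ± 0.09 on the log2 scale (edgeR adjusted p = 0.913), and 2 of 7 LOS libraries lay above every control. By sex it averaged 49.4 ± 9.53 CPM in 4 female LOS and 42.4 ± 6.88 CPM in 5 female control tongues, and 50.7 ± 5.31 CPM in 3 male LOS and 47.0 ± 4.76 CPM in 4 male control tongues.

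bta-let-7f-1-3p and bta-let-7i-3p, whose groups did not overlap in liver and in kidney, overlapped in tongue. bta-let-7f-1-3p had a lowest, median and highest CPM of 19.7, 20.9 and 23.6 in LOS tongues and of 19.5, 21.0 and 25.3 in control tongues, a log2 difference of -0.09 ± 0.07 (edgeR adjusted p = 0.913). For bta-let-7i-3p these were 28.4, 35.2 and 50.4 CPM in LOS tongues and 34.1, 37.1 and 39.8 CPM in control tongues. The LOS libraries of bta-let-7i-3p spread over more than the control range on both sides, with 3 of 7 above and 2 of 7 below every control. The other strands had differences between -0.03 and 0.09, with overlap.

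An edgeR fit used LOS 1 to 4 and control 1 to 4 of each tissue, with no term for the fetus. It tested, for the 4 shared strands, whether the LOS difference itself varied with the tissue. bta-let-7f-1-3p had the smallest p of them (0.00339 unadjusted, 0.186 adjusted), with log2 differences of 0.97 for liver, 0.47 for skeletal muscle, -0.09 for tongue and -0.13 for kidney in the fits by tissue. Those fits used every library of a tissue, with a term for sex in tongue. Their libraries therefore differ from those of this test in liver and tongue. No passenger strand was called, against 1.07% of the 374 shared miRNAs, whose 4 calls were the guides let-7a-5p, let-7d, let-7f and let-7g. Without single fetuses the adjusted p of bta-let-7f-1-3p ran from 0.0323 (without LOS 2, the 1 such fit that passed) to 0.770 (without control 2). The strand is among the shared miRNAs through its LOS livers, so this p is no independent evidence of a liver difference.

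bta-let-7e-3p was set apart by 1 animal more than by a group. Fetuses carry numbers in the labels, and a number shared by the tissues of 1 group was taken as 1 fetus. Fetus LOS 2 had the lowest bta-let-7e-3p of the table in all 4 tissues, at 3.48 CPM for liver, 4.17 CPM for tongue, 6.64 CPM for skeletal muscle and 7.29 CPM for kidney. These were 33.2%, 35.0%, 51.7% and 37.2% of the median of the other libraries.

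The let-7e guide of LOS 2 was low as well. It was the lowest of 8, 8 and 16 libraries in kidney, skeletal muscle and tongue, at 690.4, 449.6 and 799 CPM, which was 53.0%, 52.0% and 53.4% of the median of the others, and the third lowest of 13 in liver at 454 CPM (62.1%). The other low livers were ART 2 and ART 3, with 325.5 and 356.8 CPM of let-7e and 5.76 and 6.46 CPM of bta-let-7e-3p, the next lowest levels of that strand. This comparison was chosen after the values were seen and carries no test.

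The neighbours of let-7e were not low in LOS 2 to the same degree. miR-99b of LOS 2 stood at 154% of the median of the other libraries for kidney, 129% for tongue, 109% for liver and 104% for skeletal muscle. miR-125a stood at 108%, 91.3%, 101% and 80.6% in the same order, and its muscle value was the lowest of 8 libraries. The arm ratio of let-7e in LOS 2 was 10.6 per 1000 for kidney, 7.67 for liver, 5.22 for tongue and 14.8 for skeletal muscle, below every other library in kidney and liver and within the range of the others in muscle and tongue.

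**Figure D4:**
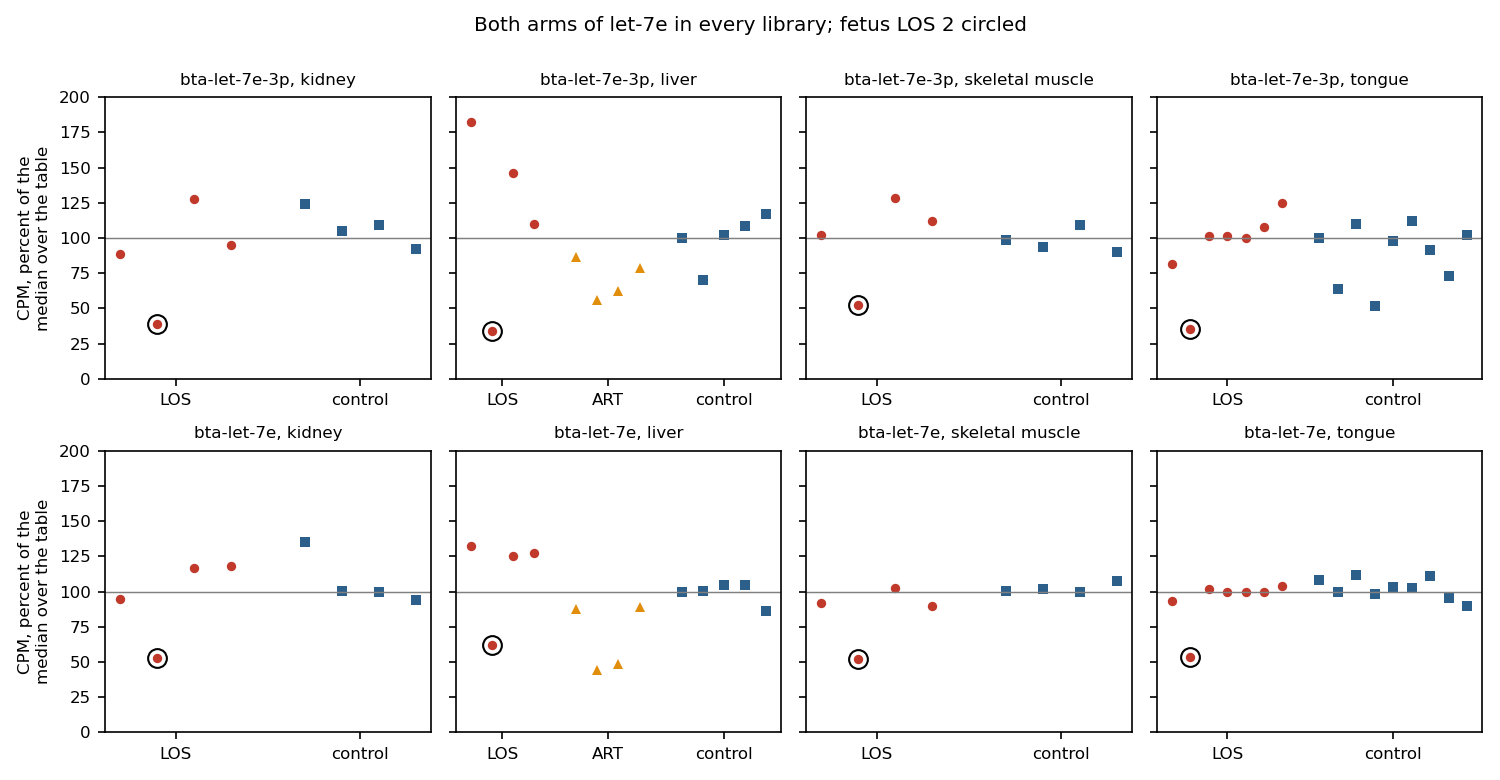
CPM of bta-let-7e-3p (top) and of its guide let-7e (bottom) in every library, as a percentage of the median over the table of each tissue. Fetus LOS 2, circled, lies lowest for bta-let-7e-3p in the 4 tissues and lowest for let-7e in kidney, skeletal muscle and tongue, while ART 2 and ART 3 lie below it for let-7e in liver.

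LOS 2 also carried weight in the group comparisons. In liver bta-let-7e-3p had 18.9, 3.48, 15.1 and 11.3 CPM in LOS, 8.97, 5.76, 6.46 and 8.13 CPM in ART and 10.3, 7.25, 10.6, 11.2 and 12.1 CPM in control fetuses. The log2 difference between LOS and ART livers was 0.73 ± 0.36 with LOS 2 (edgeR adjusted p = 0.347) and 1.02 without it (edgeR adjusted p = 0.0238). Without other single libraries it ran down to 0.44 (without LOS 1, edgeR adjusted p = 0.642). In the other tissues bta-let-7e-3p differed by -0.31 ± 0.27 in kidney, 0.04 ± 0.25 in skeletal muscle and 0.04 ± 0.19 in tongue between LOS and control, with edgeR adjusted p of 0.861 to 0.986.

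The miRNAs whose pattern was most like each strand are given by the Pearson correlation of log2 CPM, as a description. Over the 13 liver libraries, which come from 3 groups, bta-let-7f-1-3p went most with let-7g (r = 0.898), miR-98 (0.860) and let-7a-5p (0.855), bta-let-7a-3p most with let-7g (0.815), and bta-let-7e-3p most with its own guide let-7e (0.794). bta-let-7d-3p went most with miR-2284w (0.756), and its guide let-7d came 27th of 563 (0.528). Over all libraries that list a strand, which mixes tissues and tables, the nearest were miR-214 for bta-let-7f-1-3p (r = 0.954, 45 libraries), miR-181d for bta-let-7d-3p (0.929, 45), miR-152 for bta-let-7i-3p (0.964, 32), miR-195 for bta-let-7g-3p (0.905, 24), miR-452 for bta-let-7a-3p (0.787, 45) and miR-2299-5p for bta-let-7e-3p (0.575, 45).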

How the data were processed

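The authors deposited 1 table of raw read counts, in whole numbers and without normalization, for each tissue. Bowtie and UMD3.1 are named for all tissues, and cutadapt 1.18 for tongue, per the submitters' processing notes, which state no role. As to the counting tool, the miRNA annotation, any abundance filter and how reads were split between near-identical let-7 strands: none of these is given in the sources used here.

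CPM were computed on listed reads. Counts were tested with edgeR 4.0.16 (TMM, quasi-likelihood) and log2 ratios of the arms (0.5 reads added to each) with limma 3.58.1 in R 4.3.3, with Benjamini-Hochberg adjustment over the whole table and a call at an adjusted p under 0.05. filterByExpr removed no miRNA. The 3 liver groups shared 1 fit and tongue had a term for sex. DESeq2 1.42.0, limma-voom, other scalings and left-out libraries were alternatives. On simulated counts edgeR recovered 69% to 90% of 1.5-fold and 89% to 99% of 2-fold changes over the 6 group comparisons. Up to 5.23% of its calls there were false. The simulations changed a far larger share of miRNAs than was called in the data, so these shares are not the power of the real comparisons.

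The members and lists were chosen with earlier results of these data known. Named are the members, their guides and the 3 miRNAs most like each member. The arm ratios between tissues, the unscaled fits the look at let-7e and the lowest listed level were added after values were seen. 0 sample columns were left unused. No libraries of a group were near-identical (the lowest chi-square per degree of freedom was 23.9). Each p-value of a group comparison within a tissue reflects variation among fetuses as the labels number them. The main fits between tissues and of the LOS effect by tissue had no term for the fetus. They treated libraries of the same number as independent. The labels share replicate numbers between groups. Same-numbered libraries of a tissue deviated together (r over 0.1 in every pair) in ART and control livers (r of 0.123 to 0.259, 4 pairs), and 6 of the other 23 pairs did so. Same-numbered libraries of 1 group in other tissues did so in 36 of 49 pairs (median r of 0.153).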

Additional observations from a re-analysis of the deposited data

Results flagged for a closer look

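The CPM and the arm ratio of each strand were looked at in every group of 4 to 10 libraries, which made 92 sets of values. In these sets 3 values stood far from the rest of their group by Dixon's ratio, where chance gives about 4.6 (1 in 20). The CPM and the ratio share their reads, and kidney LOS 4 is counted under both. In kidney, LOS 4 had 107.6 CPM of bta-let-7d-3p and 159.9 reads of it per 1000 reads of let-7d, while the other LOS kidneys had 135 to 139 CPM and 191 to 196 per 1000. Control 1 had 6.32 CPM of bta-let-7g-3p in kidney, while the other control kidneys had 3.98 to 4.36 CPM.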

How the results depend on the processing

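Of 1 call in LOS against ART livers, 0 remained with the replicate block or with only the 2 groups compared, and 0 to 2 without a single library. A filter at a mean CPM of at least 10 also left 0. It removes bta-let-7f-1-3p (4.76 CPM on average in liver) before the test, so it cannot check that call. With the replicate block bta-let-7f-1-3p was 1.19 (edgeR adjusted p = 0.219) in LOS against ART livers. The ratio of bta-let-7d-3p in LOS against control livers was -0.37 and called (1 call, limma adjusted p = 0.0246). No label pairs LOS livers with ART or control livers by number. Of 4 same-numbered pairs, 1 had r over 0.1 for LOS and ART livers, and 1 of 4 for LOS and control livers. Exact permutation without adjustment gave 1 ratio call each in kidney, LOS against control liver, LOS against ART liver and muscle, where limma gave 0. Of all arm pairs, 5.61%, 8.39%, 3.50% and 14.7% were under 0.05 in the same order. The kidney call (bta-let-7g-3p) and the LOS against ART call (bta-let-7f-1-3p) fell on strands listed mainly through LOS libraries. Muscle ratio calls ran from 0 to 1 and calls of the LOS effect by tissue from 0 to 1 without a single library or fetus. Kidney to muscle ratio calls fell to 0 with every control library, a fit that adds no kidney or muscle library. They ran from 0 to 1 without a single library. Tongue to muscle level calls numbered 1 without scaling, 2 with only the 2 tissues compared and 2 to 4 without a single library, against 4. Liver to kidney and liver to muscle level calls each fell from 4 to 3 without scaling. Without scaling, 4 values turned round: bta-let-7a-3p (0.077) and bta-let-7d-3p (0.11) in tongue against muscle, bta-let-7a-3p (0.37) in tongue against kidney and bta-let-7e-3p (-0.026) in tongue against liver. The cause was not tested.

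Over whole tables, counts of calls moved by more than 1.5 times: LOS against control liver 2 to 20 (main 7), LOS against ART liver 3 to 27 (15), ART against control liver 0 to 6 (0), muscle 0 to 17 (0), kidney 0 to 3 (0), the LOS effect by tissue 1 to 6 (4), and arm ratios of muscle 0 to 10 (5), kidney 0 to 2, LOS against control liver 0 to 2, ART against control liver 0 to 4 and LOS against ART liver 0 to 1 (0 each). The replicate block changed no other call on a passenger strand, except the liver to kidney ratio of bta-let-7d-3p (-0.23, limma adjusted p = 0.0629). Counts of 9 to 48 reads limit bta-let-7f-1-3p in liver.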
